A study of Mus musculus with 30 samples.

Results

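RNA-sequencing counts were compared between C2C12 myotubes deprived of serum in the presence of metformin plus leucine (MET+LEU) and myotubes deprived of serum alone (SD), across all genes. The comparison holds 12 of the 30 libraries of the series, 6 MET+LEU and 6 SD, chosen by their labels. C2C12 is a mouse skeletal myoblast line of wild-type genotype whose cells fuse into myotubes when serum is lowered. In every group, cells were grown to confluence and differentiated for 4 days in medium with 2% horse serum. SD myotubes then spent 4 days in medium without serum (0% horse serum), and MET+LEU myotubes spent the same 4 days without serum but with 100 nM metformin and 500 nM leucine, for 8 days in all. The other 18 libraries, used where a difference from them is stated, are 6 each of myotubes that stayed in 2% horse serum (2% HS), that received metformin without leucine (MET) or leucine without metformin (LEU) during serum deprivation. The study asked how the combination acts on myotubes that atrophy when serum is withdrawn. All libraries come from 1 cell line and the labels do not say whether replicates came from separate cultures, so p-values measure only the spread between these libraries.

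Myotubes are multinucleate cells that have left the cell cycle and hold the contractile apparatus of muscle, whereas some mononucleate myoblasts persist in such cultures as undifferentiated reserve cells. Withdrawal of serum removes the growth factors that keep protein synthesis above protein breakdown, and myotubes shrink. Leucine is a branched-chain amino acid that is sensed by the Sestrin and SAR1B branches upstream of mTORC1, the kinase complex that drives protein synthesis, and metformin is a biguanide known for inhibiting respiratory complex I and activating AMPK, usually at concentrations above those used here.

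Total RNA depleted of ribosomal RNA was sequenced, and the SD libraries held 12813903 to 18275801 counts on genes and the MET+LEU libraries 13926677 to 18322581. One library stood apart. In MET+LEU replicate 6, nuclear ribosomal RNA genes took 5.85% of counts and the mitochondrial ribosomal RNA genes 7.64%, and its TMM scaling factor was 0.803, whereas the other 5 MET+LEU libraries held 0.659% to 1.96% and 0.649% to 0.76%. The SD libraries held 0.209% to 0.89% nuclear and 0.281% to 0.367% mitochondrial ribosomal RNA, so the mitochondrial share was higher in all 6 MET+LEU libraries than in any SD library. Results are therefore also given without MET+LEU replicate 6, though not for every value or count that moved. The labelled cell type was checked against its markers. All 12 myotube markers were expressed, summing to 11700 to 13590 CPM of the library total in SD and 11830 to 14130 in MET+LEU. Adipocyte, osteoblast and endothelial markers each summed to at most 1.02 CPM in any of the 12 libraries, whereas the 5 macrophage markers summed to 2.63 to 4.08 CPM in SD and 1.63 to 3.35 in MET+LEU. Of these, Adgre1 had 0 counts in all 30 libraries and Cd68 alone passed the filter on low counts, and it was not called. Undifferentiated myoblast markers summed to 617.5 to 684.8 CPM in SD and 453.6 to 616.9 in MET+LEU, and fibroblast markers to 803 to 971.9 and 548.9 to 732.2. These sums are not TMM-scaled, and as means of TMM-scaled log2 CPM both sets overlapped between the groups. Undifferentiated myoblast means lay at 5.38 to 5.49 in SD and 5.21 to 5.47 in MET+LEU, with replicate 6 lowest. Fibroblast means lay at 4.92 to 5.06 in SD and 4.95 to 5.15 in MET+LEU. Of the 8 tested undifferentiated myoblast markers 1, the proliferation marker Mki67, was downregulated and 0 upregulated (edgeR, with 2 upregulated at an unadjusted p under 0.05 and 0 by DESeq2 and limma), and of 5 tested fibroblast markers 1 was downregulated (Col1a1) and 1 upregulated (Dcn).

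With MET+LEU, 1690 of 15907 tested genes were upregulated (10.6%) and 1241 were downregulated (7.8%) at an adjusted p under 0.05 (edgeR quasi-likelihood, adjusted by the Benjamini-Hochberg method). The changes were small, with a median log2 fold change of 0.23 among the upregulated and -0.24 among the downregulated genes, and 26 and 28 genes changed by at least 1. Over all tested genes the median was -0.01. Scaling by upper quartile turned the balance to 1446 upregulated and 1556 downregulated genes and left the median at -0.02. The lowest MET+LEU library exceeded the highest SD library for 543 genes (3.41%), and the highest fell short of the lowest SD library for 307 (1.93%). The plot of fold change against expression level shows both sets of changed genes on either side of 0.

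**Figure D1:**
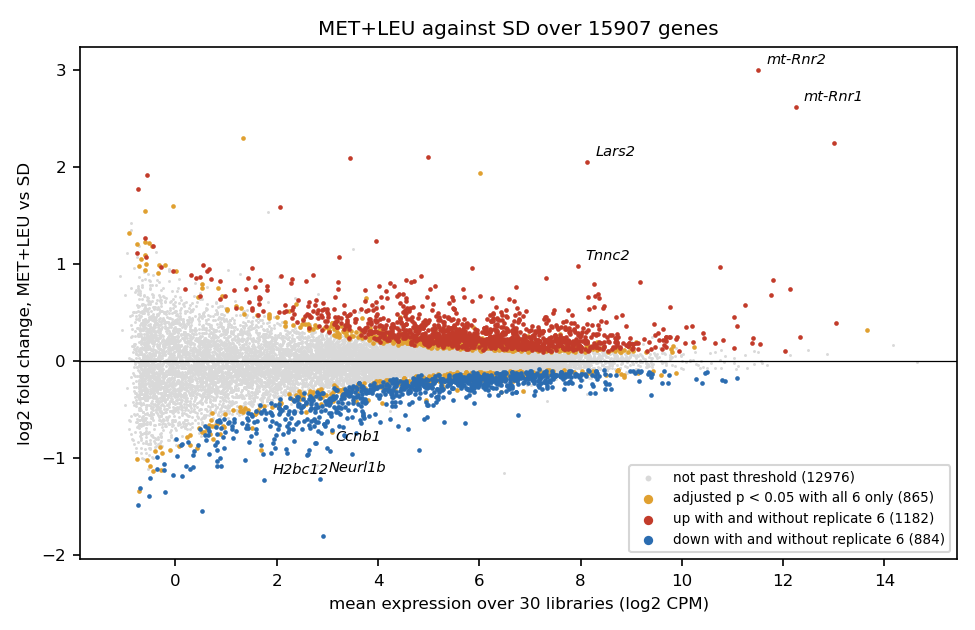
Log2 fold change of MET+LEU vs. SD (y axis) against mean expression over the 30 libraries in log2 CPM (x axis), 1 point per tested gene. Red and blue points passed an adjusted p under 0.05 with and without MET+LEU replicate 6 (1182 up and 884 down), orange points only with all 6 MET+LEU libraries (865), and grey points did not pass (12976). mt-Rnr2 and mt-Rnr1 lie highest, and most coloured points lie within 1 log2 unit of 0.

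Without MET+LEU replicate 6, 1217 genes were upregulated (7.58% of 16062 tested) and 958 downregulated (5.96%). Of the genes called with all libraries, 1182 upregulated and 884 downregulated genes kept their call and none changed direction, whereas 508 and 357 lost it. That library was the highest of the 6 MET+LEU libraries for 1221 of the 1690 upregulated genes and the lowest for 776 of the 1241 downregulated genes. The calls also moved with base composition. Genes were split into quintiles by the GC content of their exons, which was known for 15881 of them (99.8%). In the lowest quintile 17.2% of genes were upregulated and 2.42% downregulated, and in the highest quintile 3.40% and 17.98%. The gradient was still present without replicate 6, at 11.4% and 2.30% in the lowest quintile and 2.99% and 12.6% in the highest. With an offset for GC content in each library, added after seeing the data, 1513 genes were upregulated (9.51%) and 1004 downregulated (6.31%), with 9.25% and 5.67% in the lowest quintile and 9.29% and 6.42% in the highest. Of the calls, 1237 upregulated and 777 downregulated genes were shared by the fits with and without the offset, and none changed direction. The part of base composition in single results was not tested beyond this offset. Counts under it are given below for some gene groups, and the counts of others moved as well.

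**Figure D2:**
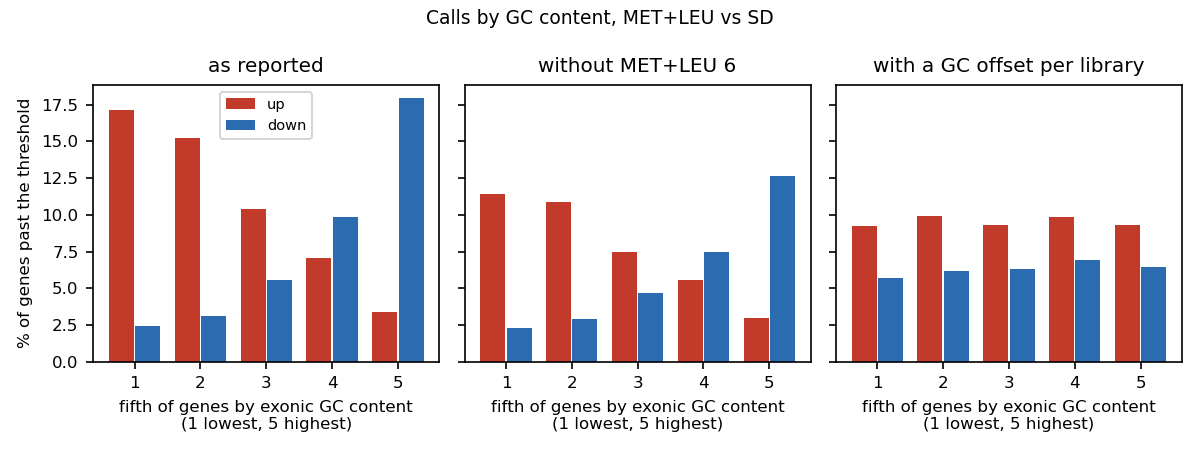
Percentage of genes upregulated (red) and downregulated (blue) in MET+LEU vs. SD (y axis) in quintiles of genes ordered by exonic GC content (x axis), with all libraries, without MET+LEU replicate 6 and with a GC offset for each library. Upregulated genes fall from 17.2% to 3.40% and downregulated genes rise from 2.42% to 17.98% from the lowest to the highest quintile as reported, and both are level with the offset.

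Of the 12 protein-coding genes with the largest falls whose groups did not overlap and whose call held without replicate 6, 4 encode core histones (H2bc12, H3c10, H3c3 and H4c6), H4f16 encodes a further histone H4, and Aurkb, Kif18b, Iqgap3, Pkmyt1, Mxd3 and Fancd2 are known from mitosis, cell cycle entry or DNA repair. The remaining gene was Neurl1b, a ubiquitin ligase that acts on Notch ligands. Their log2 fold changes ran from -1.23 to -0.90, and from -1.17 to -0.77 without replicate 6. H2bc12 (ENSMUSG00000062727; chromosome 13, 22035870 to 22036345 in GRCm38), a replication-dependent histone H2B gene, lay at 3.31, 4.48 and 5.58 CPM (lowest, median and highest library) in SD and at 1.05, 1.88 and 2.85 in MET+LEU (log2 fold change -1.23 with a standard error of 0.18, adjusted p = 5.08e-06). Its highest MET+LEU library lay below its lowest SD library, as it does by the rule for each of these 12 genes. Neurl1b (chromosome 17, 26414829 to 26446349) lay at 7.38, 8.57 and 11.99 CPM in SD and at 3.16, 3.94 and 5.16 in MET+LEU (log2 fold change -1.21 with a standard error of 0.12, adjusted p = 1.74e-09). Aurkb, the kinase of the chromosomal passenger complex that corrects kinetochore attachment, lay at 4.77, 5.82 and 6.58 CPM in SD and 1.78, 3.03 and 3.95 in MET+LEU (log2 fold change -0.95 with a standard error of 0.13, adjusted p = 1.77e-06). Fancd2, which is loaded onto damaged DNA at interstrand crosslinks, had 2.00, 3.21 and 4.16 CPM in SD and 0.972, 1.48 and 1.95 in MET+LEU (log2 fold change -1.02 with a standard error of 0.21, adjusted p = 3.55e-04). All 12 kept their call under the GC offset. Of them 11 were also lower than in MET (3.15% of all genes were), 6 lower than in LEU (1.67%) and 11 lower than in 2% HS (20.3%). The offset fit and these comparisons reuse the MET+LEU libraries by which the 12 were chosen, so they are no independent support. For H4f16, replicate 6 stood apart at 6.40 CPM and the call was lost when only these 12 libraries were modelled (adjusted p = 0.0559). Fancd2, Mxd3, Kif18b and Pkmyt1 overlap genes on the opposite strand, and reads of the 2 strands were told apart only if counting used the strand, which is not given in the sources used here.

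**Figure D3:**
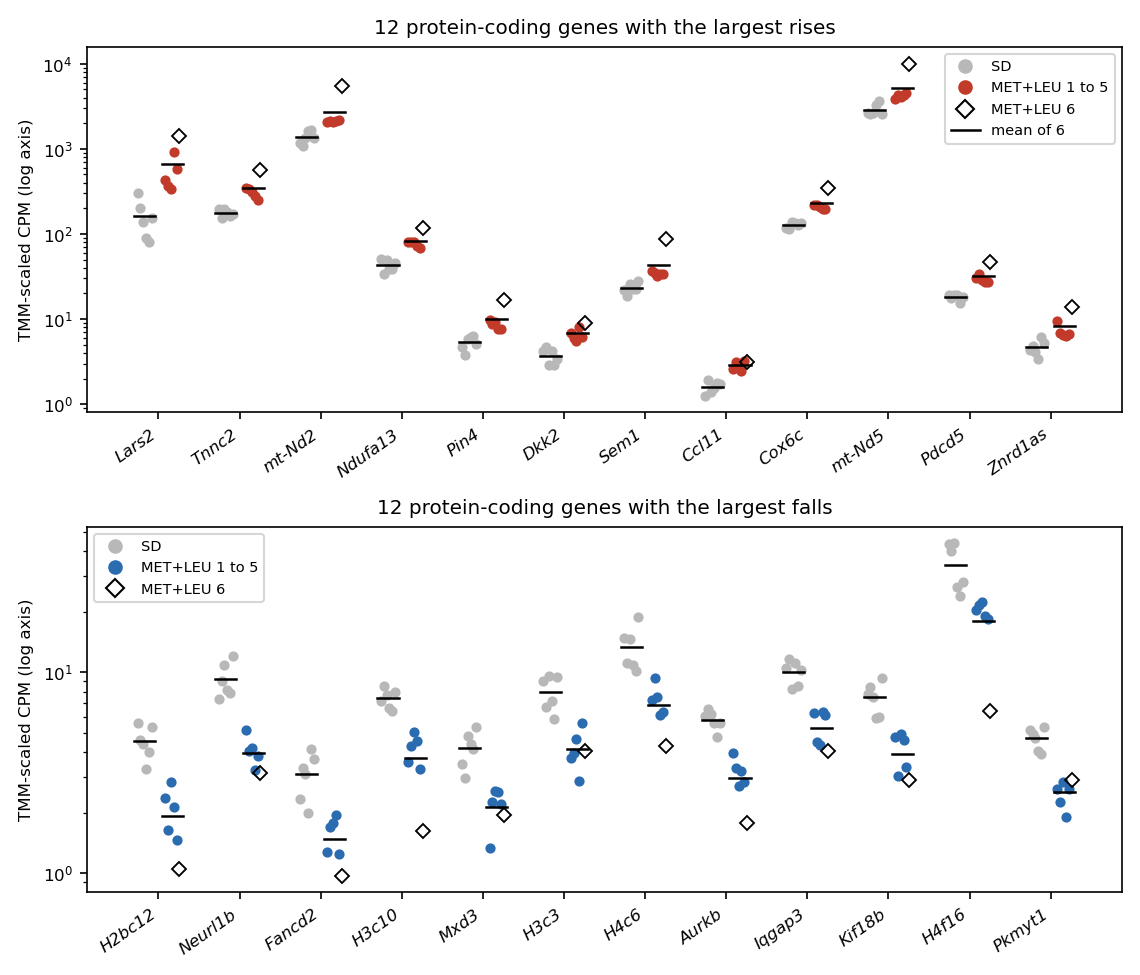
TMM-scaled CPM (y axis, log scale) of the 12 protein-coding genes with the largest rises (top) and the 12 with the largest falls (bottom) in MET+LEU vs. SD, 1 point per library, grey for SD, coloured for MET+LEU replicates 1 to 5 and an open diamond for replicate 6, with a line at the mean of 6. The groups do not overlap for any of the 24 genes, and replicate 6 lies far above the other MET+LEU libraries for Sem1 and mt-Nd2.

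Genes of mitosis fell almost throughout. Of 46 mitotic genes, all 46 passed the filter on low counts, 43 were downregulated and 0 were upregulated, against 7.8% and 10.6% of all tested genes (edgeR, with 0 upregulated also at an unadjusted p under 0.05, by DESeq2 and by limma). The median log2 fold change was -0.56, against -0.01 over all genes, and was -0.56 without replicate 6. There 43 were again downregulated, 42 of them shared, with Spc24 no longer passing and Smc2 passing. In 25 of the 46 genes all 6 MET+LEU libraries lay below all 6 SD libraries, against 1.93% of all genes. The mean log2 CPM over the list was 3.51 to 3.78 in SD and 3.01 to 3.16 in MET+LEU, so the groups did not overlap. In bulk samples, fewer dividing cells and less of these transcripts in each cell cannot be told apart. The list held 36 genes lower than in MET (3.15% of all genes were) and 5 lower than in LEU (1.67%), with medians of -0.43 and -0.17, and 37 lower than in 2% HS (20.3%). These comparisons share the MET+LEU libraries.

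The genes that order entry into mitosis, spindle assembly and cytokinesis are given by step. Ccna2, the cyclin that partners CDKs in S phase and G2, lay at 23.2, 24.9 and 28.2 CPM in SD and 13.9, 15.3 and 19.04 in MET+LEU (log2 fold change -0.67 with a standard error of 0.08, adjusted p = 3.69e-08). Ccnb1, the cyclin whose complex with Cdk1 starts mitosis, lay at 8.86, 10.2 and 10.99 CPM in SD and 4.37, 5.57 and 6.12 in MET+LEU (log2 fold change -0.89 with a standard error of 0.11, adjusted p = 7.68e-08). Neither gene overlapped between the groups. Cdk1 itself fell from 14.3 ± 1.61 to 9.32 ± 1.36 CPM (mean ± standard deviation, n = 6 each), a log2 fold change of -0.61 (edgeR, adjusted p = 2.11e-05). Anln, the anillin scaffold of the contractile ring, lay at 33.5, 34.9 and 43.8 CPM in SD and 21.7, 23.9 and 27.7 in MET+LEU (log2 fold change -0.57 with a standard error of 0.07, adjusted p = 5.33e-07). Its SD replicate 6 was the highest by a wide margin, and without that library it kept its call. Top2a, which untangles sister chromatids, fell from 63.05 ± 7.09 to 40.4 ± 2.65 CPM (mean ± standard deviation, n = 6 each, log2 fold change -0.64, edgeR adjusted p = 6.34e-07). With all libraries the members that did not pass were Smc2, Bub3 and Smc4, at log2 fold changes of -0.15, -0.12 and 0.08. Cdk1 and Top2a were chosen for their roles after their values were seen.

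Promoters of mitotic genes are known to carry CCAAT boxes and the cell cycle genes homology region (CHR). Through the CHR, the DREAM and MuvB complexes repress and activate these genes. The 250 bases before the annotated start are shown for the 3 mitotic genes with the smallest adjusted p whose window held no annotated transcript of the gene. Genes with no promoter in the table, and genes not reported here, were passed over. They are taken from RefSeq on GRCm38.p6, run 5′ to 3′ on the gene's strand, and capitals mark CCAAT and the CHR letters TTTGAA or TTCGAA on either strand.
Anln (chr9:22389207-22389456, minus strand): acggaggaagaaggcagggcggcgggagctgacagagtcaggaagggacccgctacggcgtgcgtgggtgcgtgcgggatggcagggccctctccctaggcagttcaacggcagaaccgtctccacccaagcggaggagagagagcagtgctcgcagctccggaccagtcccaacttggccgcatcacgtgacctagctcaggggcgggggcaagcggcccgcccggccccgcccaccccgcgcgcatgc
Top2a (chr11:99024190-99024439, minus strand): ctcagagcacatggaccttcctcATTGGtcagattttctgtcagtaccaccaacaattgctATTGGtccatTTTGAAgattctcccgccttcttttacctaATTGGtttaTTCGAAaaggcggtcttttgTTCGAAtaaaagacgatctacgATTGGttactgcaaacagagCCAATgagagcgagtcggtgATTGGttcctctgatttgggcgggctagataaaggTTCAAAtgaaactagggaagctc
Kif11 (chr19:37376132-37376381, plus strand): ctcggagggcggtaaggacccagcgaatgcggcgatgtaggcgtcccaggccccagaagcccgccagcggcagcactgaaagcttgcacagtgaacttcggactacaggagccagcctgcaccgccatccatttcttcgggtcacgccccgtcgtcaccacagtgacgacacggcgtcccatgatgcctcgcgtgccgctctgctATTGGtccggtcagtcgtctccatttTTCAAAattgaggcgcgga
Top2a held 4 CHR and 6 CCAAT matches, Kif11, which encodes the bipolar spindle kinesin, held 1 of each, and Anln held neither. Of the 39 mitotic genes of 46 with a promoter in the table, 38.5% held a CHR match and 76.9% a CCAAT match, against 17.4% and 34.5% of 27025 promoters, and 35.9% held both, against 6.21%. A match is a description of these letters and not a bound site.

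Clustered histone genes, which are transcribed in S phase and whose transcripts mostly lack a poly(A) tail, fell as a group. Of 67 such genes 56 passed the filter, 32 were downregulated (57.1%, beside 7.8% of all genes) and 2 were upregulated (3.57%, beside 10.6%), with a median log2 fold change of -0.45. Without replicate 6 there were 30 and 2 with a median of -0.44, and with the GC offset 26 and 2 with a median of -0.34. The exonic GC content of the list was high, at a median of 57.9%, and 16 genes lay below all SD libraries in all 6 MET+LEU libraries, as did 1.93% of all genes. H3c3 lay at 5.85, 8.10 and 9.56 CPM in SD and 2.87, 4.00 and 5.57 in MET+LEU (log2 fold change -0.96 with a standard error of 0.13, adjusted p = 1.77e-06). H4c6 lay at 10.1, 12.8 and 18.9 CPM in SD and 4.29, 6.82 and 9.37 in MET+LEU (log2 fold change -0.96 with a standard error of 0.13, adjusted p = 2.85e-06). H4c2 lay at 10.7, 12.7 and 15.2 CPM in SD and 4.78, 7.50 and 9.71 in MET+LEU (log2 fold change -0.77 with a standard error of 0.11, adjusted p = 3.31e-06). In each of these 3 genes the groups did not overlap, which the rule for the largest falls required of H3c3 and H4c6. The upregulated members were H1f4, a linker histone, and H2bc4, at log2 fold changes of 0.38 and 0.37. Histone paralogs are nearly identical in their coding sequence and reads shared between them were counted in a way not given in the sources used here, so values of single histone genes are uncertain. The list held 29 genes lower than in MET (3.15% of all genes were) and 17 lower than in LEU (1.67%). Of 50 histone promoters, 82% held a CCAAT match, 46% a CHR match, 44% both and 50% the letters TATAAA, against 34.5%, 17.4%, 6.21% and 13% of all promoters.

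Of 47 DNA replication genes, all tested, 16 were downregulated (34.04%) and 1 was upregulated (2.13%), with a median of -0.15 (-0.15 without replicate 6). The list mean lay below all SD libraries in all 6 MET+LEU libraries, at 3.47 to 3.56 against 3.58 to 3.78. Mcm5, a subunit of the replicative helicase, lay at 10.5, 12.7 and 14.1 CPM in SD and 5.27, 7.42 and 9.56 in MET+LEU (log2 fold change -0.76 with a standard error of 0.11, adjusted p = 2.04e-06). Rrm2, the S phase subunit of ribonucleotide reductase, lay at 88.7, 100.0 and 109 CPM in SD and 79.5, 81.7 and 91.8 in MET+LEU, where MET+LEU replicate 2 lay above SD replicate 1 (log2 fold change -0.26 with a standard error of 0.04, adjusted p = 1.38e-05). Pole, the catalytic subunit of DNA polymerase epsilon, lay at 13.1, 15.3 and 17.8 CPM in SD and 9.29, 10.7 and 11.1 in MET+LEU without overlap (log2 fold change -0.54 with a standard error of 0.09, adjusted p = 1.51e-05). Of 37 tested p53 targets and CDK inhibitors, 6 were downregulated and 4 upregulated, shares of 16.2% and 10.8% beside 7.8% and 10.6% of all genes. With the GC offset 9 were downregulated and 3 upregulated, where 6.31% and 9.51% of all genes were. Cdkn1a, which encodes the CDK inhibitor p21 and was chosen for that role after its values were seen, fell from 2394 ± 179 to 2123 ± 129 CPM (mean ± standard deviation, n = 6 each, log2 fold change -0.17, edgeR adjusted p = 0.00236). Pdlim4, a LIM domain protein of actin filaments, lay at 129, 139 and 166 CPM in SD and 113, 124 and 129 in MET+LEU (log2 fold change -0.23 with a standard error of 0.04, adjusted p = 1.49e-04). Gadd45a, a growth arrest gene induced by DNA damage, moved the other way, with 109.6, 126 and 143 CPM in SD and 140.4, 163 and 170.1 in MET+LEU (log2 fold change 0.30 with a standard error of 0.06, adjusted p = 2.48e-04). Both genes had libraries of the groups overlapping.

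Genes of the contractile apparatus rose. Of 41 sarcomere genes 40 were tested, and 22 were upregulated, against 10.6% of all genes. The median log2 fold change was 0.24, 0.18 without replicate 6 (24 up) and 0.23 with the GC offset (26 up). The list mean was 8.28 to 8.43 log2 CPM in SD and 8.44 to 8.71 in MET+LEU, with every MET+LEU library above every SD library. The largest rises in the list were those of the fast troponin genes Tnnc2, Tnnt3 and Tnni2. Tnnc2, which encodes fast skeletal troponin C (chromosome 2, 164777161 to 164779967), lay at 154, 177 and 196 CPM in SD and 251, 321 and 566 in MET+LEU (log2 fold change 0.98 with a standard error of 0.13, adjusted p = 1.58e-05). Without replicate 6, at 566 CPM, its log2 fold change was 0.78 (edgeR, adjusted p = 1.39e-06). Tnnc2 overlaps Ube2c, a mitotic gene on the opposite strand that fell (edgeR, adjusted p = 0.0333, and 0.0622 with the GC offset). Tnnt3, fast troponin T, lay at 389.8, 459.7 and 487 CPM in SD and 643, 743 and 1243 in MET+LEU (log2 fold change 0.82 with a standard error of 0.11, adjusted p = 1.08e-05), and its log2 fold change was 0.64 without replicate 6. The genes with the smallest adjusted p in the list were Tpm1, Myh1 and Lmod3. Tpm1, a tropomyosin that covers the myosin sites on actin, lay at 924, 1012 and 1059 CPM in SD and 1143, 1241 and 1511 in MET+LEU (log2 fold change 0.35 with a standard error of 0.04, adjusted p = 3.78e-07). Myh1, the fast type 2X myosin heavy chain, lay at 1626, 1782 and 1848 CPM in SD and 2218, 2251 and 3132 in MET+LEU (log2 fold change 0.46 with a standard error of 0.06, adjusted p = 1.68e-06). Lmod3, which nucleates thin filaments, lay at 136, 145 and 147 CPM in SD and 173, 181 and 253 in MET+LEU (log2 fold change 0.43 with a standard error of 0.06, adjusted p = 3.14e-06). In each of these the groups were apart, and replicate 6 was the highest library of all 3. The actin and titin genes did not pass the threshold, with log2 fold changes of -0.04 for Acta1, -0.08 for Actc1 and -0.01 for Ttn. The sarcomere list held 26 genes higher than in MET (5.54% of all genes) and 13 higher than in LEU (4.61%). Against 2% HS it held 15 higher (22.1% of all genes were) and 14 lower (20.3%), a median of 0.06.

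Other muscle genes were called in both directions. Of 28 genes of excitation-contraction coupling and calcium handling, 5 were upregulated (17.9%) and 6 downregulated (21.4%), beside 10.6% and 7.8% of all genes. The downregulated count was 3 with the GC offset and 3 without MET+LEU replicate 4 or SD replicate 1. Without MET+LEU replicate 6, 4 were upregulated and 4 downregulated. Trdn, the triadin that anchors calsequestrin at the junction, lay at 55.9, 59.4 and 63.9 CPM in SD and 66.1, 79.4 and 103 in MET+LEU (log2 fold change 0.43 with a standard error of 0.07, adjusted p = 4.42e-05). Casq2, the cardiac and slow calsequestrin, lay at 309, 324 and 359 CPM in SD and 342, 364 and 408 in MET+LEU, with an overlap between the groups (log2 fold change 0.19 with a standard error of 0.04, adjusted p = 3.25e-04). The groups were apart for Trdn. Of 29 myogenic regulators and fusion genes, 4 were upregulated (13.8%) and 5 downregulated (17.2%, and 3 genes without SD replicate 1). Ankrd1, a titin-binding stress gene, lay at 291, 330.5 and 341 CPM in SD and 397, 403 and 553 in MET+LEU (log2 fold change 0.41 with a standard error of 0.06, adjusted p = 2.17e-05). Mef2c, a transcription factor of muscle differentiation, lay at 764, 844 and 869 CPM in SD and 920.1, 987 and 1025 in MET+LEU (log2 fold change 0.24 with a standard error of 0.04, adjusted p = 3.33e-05). Cdh15, the cadherin of myoblasts, went down, from 339, 355 and 413 to 272, 309 and 329.5 CPM (log2 fold change -0.23 with a standard error of 0.04, adjusted p = 4.33e-05). Myog and Myod1, named for their roles, did not pass, at -0.08 and -0.07 on the log2 scale (edgeR, adjusted p = 0.0985 and 0.463).

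Transcripts of the mitochondrial genome were higher in part, and by an amount that rested largely on 1 library. All 13 mitochondrially encoded mRNAs were tested, and 7 were upregulated (53.85%) and 0 downregulated, beside 10.6% and 7.8% of all genes. The count downregulated was also 0 at an unadjusted p under 0.05 (edgeR), by DESeq2 and by limma. The median log2 fold change was 0.58, and 0.21 without replicate 6 (6 upregulated, where 7.58% of all genes were). When only these 12 libraries were modelled 1 of the 13 passed. The list mean of replicate 6 was 8.90 log2 CPM, and it alone lay above all SD libraries, which ran from 6.70 to 7.54. MET+LEU replicates 1 to 5 lay at 7.28 to 7.44 and LEU libraries at 7.27 to 7.44. Against MET 6 members were higher (5.54% of all genes were) and against LEU 1 (4.61%). With the GC offset 6 were upregulated, where 9.51% of all genes were. mt-Nd2, a complex I subunit, lay at 1067, 1337 and 1666 CPM in SD and 2041, 2114 and 5501 in MET+LEU (log2 fold change 0.97 with a standard error of 0.19, adjusted p = 7.68e-04). mt-Nd5, of the same complex, lay at 2541, 2625 and 3669 CPM in SD and 3855, 4250 and 10029 in MET+LEU (log2 fold change 0.84 with a standard error of 0.18, adjusted p = 0.00141). mt-Cytb, the cytochrome b of complex III, lay at 3219, 3646 and 4359 CPM in SD and 5193, 5283 and 11360 in MET+LEU (log2 fold change 0.74 with a standard error of 0.15, adjusted p = 8.07e-04). No SD library reached a MET+LEU library for these 3 genes, which the rule for the largest rises required of mt-Nd2 and mt-Nd5. Without replicate 6 the log2 fold changes of mt-Nd2, mt-Nd5 and mt-Cytb were 0.62, 0.53 and 0.48. The mitochondrial ribosomal RNAs rose beside them, as did CT010467.1, an annotated nuclear ribosomal RNA gene, from 4559 ± 2418 to 21720 ± 25510 CPM (mean ± standard deviation, n = 6 each, log2 fold change 2.25, 1.33 without replicate 6, edgeR adjusted p = 0.00185). mt-Rnr2, the large subunit RNA, lay at 1058, 1139 and 1371 CPM in SD and 2012, 2950 and 42476 in MET+LEU (log2 fold change 3.00 with a standard error of 0.57, adjusted p = 5.19e-04), and mt-Rnr1, the small subunit RNA, at 1718, 2026 and 2261 CPM in SD and 3543, 4506 and 52730 in MET+LEU (log2 fold change 2.61 with a standard error of 0.53, adjusted p = 9.39e-04). Both passed without replicate 6, at 1.23 and 1.10. Neither they nor mt-Nd2 and mt-Nd5 passed when only these 12 libraries were modelled (edgeR, adjusted p between 0.0517 and 0.0600). The libraries had been depleted of ribosomal RNA, and how far depletion differed between them was not tested.

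The nuclear gene with the largest rise among protein-coding genes was Lars2, the leucyl-tRNA synthetase of mitochondria (chromosome 9, 123366927 to 123462666, ENSMUSG00000035202 in the deposited table). It lay at 79.9, 147 and 302 CPM in SD and 337, 508 and 1401 in MET+LEU (log2 fold change 2.05 with a standard error of 0.37, adjusted p = 3.47e-04), without overlap, and at 1.70 on the log2 scale without replicate 6. It was higher than in MET, in LEU and in 2% HS, in comparisons that share the MET+LEU libraries. Gm24270, which lies within Peak1 on the same strand, and Gm24187 are annotated as miRNAs and rose by 2.10 and 2.10, from 7.46, 15.4 and 26.4 to 37.4, 66.7 and 120.2 CPM and from 4.31, 5.43 and 9.62 to 9.97, 24.9 and 40.1 CPM. Mir6236 reached 50.4, 70.3 and 530.4 CPM in MET+LEU from 20.2, 33.4 and 75.4 in SD and did not pass without replicate 6 (edgeR, adjusted p = 0.0543). Of the ribosomal RNA shares given above, the mitochondrial share was higher in all MET+LEU than in all SD libraries. The nuclear share of MET+LEU replicates 2 and 3 (0.754% and 0.659%) lay below that of SD replicate 1 (0.89%). Within each group, the 6 libraries ranked in the same order by Lars2 as by nuclear ribosomal RNA share. In SD, Lars2 ran from 79.9 CPM at a share of 0.209% (replicate 5) to 302 at 0.89% (replicate 1). In MET+LEU it ran from 337 CPM at 0.659% (replicate 3) to 1401 at 5.85% (replicate 6). The part of both shares in these rises was not tested. Aminoacyl-tRNA synthetases, Lars2 included, went both ways, with 9 upregulated (22.5%) and 4 downregulated (10%) of 40, beside 10.6% and 7.8% of all genes, and a median of -0.01. Rars and Tars, the cytosolic arginyl and threonyl enzymes, lay at 76.8, 86.6 and 95.3 and 116, 128 and 135 CPM in SD and 97.6, 103 and 132 and 140.0, 144 and 176 in MET+LEU (log2 fold changes 0.31 and 0.22). Vars, the valyl enzyme, lay at 92.4, 107 and 119 CPM in SD and 70.1, 89.5 and 91.6 in MET+LEU (log2 fold change -0.28 with a standard error of 0.05, adjusted p = 1.17e-04). Lars, the cytosolic leucyl enzyme, did not pass, at 0.03 on the log2 scale.

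Nuclear genes of mitochondria rose in part. Of 79 oxidative phosphorylation genes, all tested, 26 were upregulated (32.9%) and 2 downregulated (2.53%), beside 10.6% and 7.8% of all genes (26 and 0 without replicate 6, 29 and 0 with the GC offset). The median was 0.08 and fell to 0.04 without MET+LEU replicate 2, the library whose absence moved it most. Ndufa13, a complex I subunit, lay at 33.6, 42.1 and 50.8 CPM in SD and 68.4, 80.2 and 119 in MET+LEU (log2 fold change 0.95 with a standard error of 0.11, adjusted p = 2.89e-06), and overlaps Yjefn3 on its own strand. Cox6c, a complex IV subunit, lay at 114, 131 and 139 CPM in SD and 195, 211 and 347 in MET+LEU (log2 fold change 0.85 with a standard error of 0.11, adjusted p = 4.27e-06). Cycs, the somatic cytochrome c, lay at 36.00, 44.7 and 49.6 CPM in SD and 62.03, 66.1 and 87.1 in MET+LEU (log2 fold change 0.66 with a standard error of 0.07, adjusted p = 3.83e-09). Atp5j, coupling factor 6 of ATP synthase, lay at 65.4, 73.6 and 84.6 CPM in SD and 94.2, 104 and 120.1 in MET+LEU (log2 fold change 0.51 with a standard error of 0.06, adjusted p = 1.67e-07). None of these 4 overlapped between the groups, which the rule for the largest rises required of Ndufa13 and Cox6c. All 4 were highest in MET+LEU replicate 6. Of the 79 genes, 9 lay above all SD libraries in all 6 MET+LEU libraries, as did 3.41% of all genes. Cox8a and Atp5g2 fell, by 0.14 and 0.20 on the log2 scale, and neither passed without replicate 6 or with the GC offset. Of 78 mitochondrial ribosomal protein genes, 22 were upregulated (28.2%) and 2 downregulated (2.56%), with a median of 0.09. Without replicate 6, 17 were upregulated and 2 downregulated. Mrps15, of the small subunit, lay at 18.3, 21.2 and 22.03 CPM in SD and 25.3, 28.3 and 34.1 in MET+LEU (log2 fold change 0.50 with a standard error of 0.07, adjusted p = 8.60e-07). Of 28 TCA cycle and pyruvate dehydrogenase genes 5 were upregulated (17.9%) and 0 downregulated (edgeR, with 0 also at an unadjusted p under 0.05, by DESeq2 and by limma), among them Sucla2, a succinyl-CoA ligase subunit, at 83.03, 84.2 and 87.1 CPM in SD and 101, 105 and 124 in MET+LEU (log2 fold change 0.34 with a standard error of 0.04, adjusted p = 1.23e-07), and Dld, the dehydrogenase shared by pyruvate and branched-chain keto acid complexes, with a log2 fold change of 0.32. Of 31 genes of fatty acid oxidation 5 were upregulated (16.1%) and 0 downregulated (edgeR, with 2 downregulated at an unadjusted p under 0.05 and 0 by DESeq2 and limma). The upregulated count was 2 without SD replicate 5 and 3 without MET+LEU replicate 2 or SD replicate 2. Acadl, the long-chain acyl-CoA dehydrogenase, and Lpl, lipoprotein lipase, had log2 fold changes of 0.26 and 0.31. Of 29 glycolysis genes 5 were downregulated (17.2%) and 1 was upregulated (3.45%), with 3 downregulated without replicate 6 or SD replicate 2 and 8 without MET+LEU replicate 2. With the GC offset 3 were downregulated and 2 upregulated. Eno1, an enolase, lay at 743, 765 and 863 CPM in SD and 570.0, 675 and 719.9 in MET+LEU (log2 fold change -0.23 with a standard error of 0.04, adjusted p = 1.68e-04), whereas Pgam2, the muscle phosphoglycerate mutase, lay at 50.5, 55.9 and 62.1 CPM in SD and 57.8, 66.03 and 77.1 in MET+LEU (log2 fold change 0.25 with a standard error of 0.07, adjusted p = 0.0078).

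**Figure D4:**
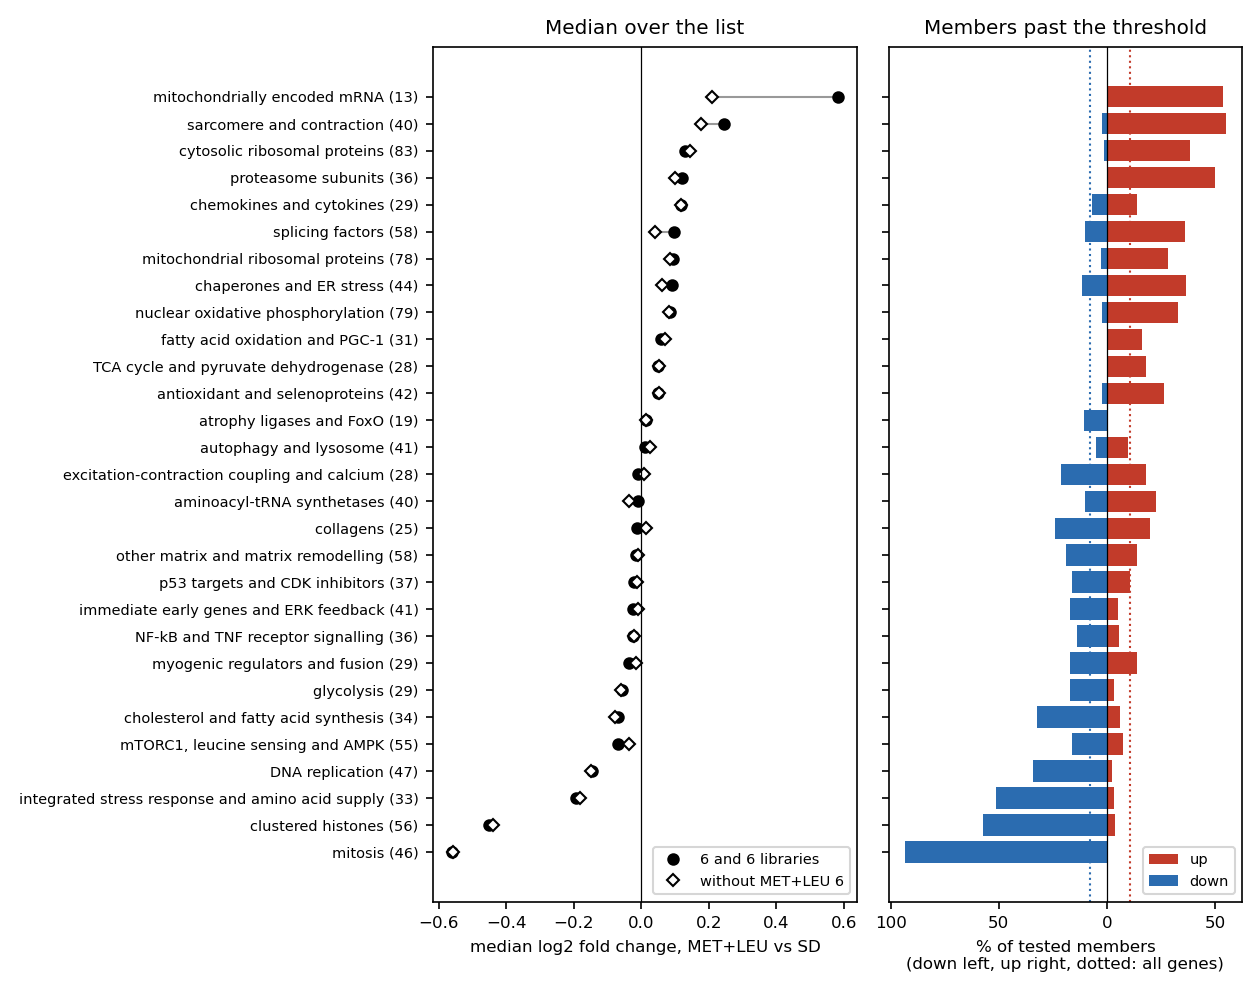
Gene lists with the number of tested members in brackets (y axis). Left, median log2 fold change of MET+LEU vs. SD with all libraries (filled circles) and without MET+LEU replicate 6 (open diamonds); right, percentage of tested members upregulated (red) and downregulated (blue), with dotted lines at 10.6% and 7.8%, the shares over all genes. Mitosis lies lowest at -0.56 with and without replicate 6, and mitochondrially encoded mRNA moves from 0.58 to 0.21 without it.

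Cytosolic ribosomal protein genes rose in part. Of 85 genes 83 were tested, 32 were upregulated (38.6%, beside 10.6% of all genes) and 1, Rpl22l1, was downregulated, with a median log2 fold change of 0.13 (0.14 without replicate 6, with 32 and 0 calls). The list mean overlapped between the groups, at 7.30 to 7.65 log2 CPM in SD and 7.49 to 7.76 in MET+LEU, and 3 of 6 MET+LEU libraries exceeded every SD library. Rpl21, of the large subunit, lay at 147, 154 and 169 CPM in SD and 198, 221 and 275 in MET+LEU (log2 fold change 0.53 with a standard error of 0.05, adjusted p = 3.59e-09). Rpl23a, another large subunit gene, lay at 294, 323 and 363 CPM in SD and 371, 434 and 460.5 in MET+LEU (log2 fold change 0.40 with a standard error of 0.05, adjusted p = 4.35e-07). The groups were apart for both, whereas Rps14 and Rplp1 lay lower in MET+LEU without passing, at -0.34 and -0.18. Many ribosomal protein genes have processed pseudogenes of near-identical sequence, so single values are uncertain. Against MET 19 members were higher (5.54% of all genes were) and against LEU 13 (4.61%).

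Genes of amino acid supply and the integrated stress response, the program that Atf4 drives when amino acids are scarce, fell. Of 34 genes 33 were tested, 17 were downregulated (51.5%, beside 7.8% of all genes) and 1, Nupr1, was upregulated, with a median log2 fold change of -0.19 (-0.18 without replicate 6, 14 down and 1 up). With the GC offset 14 fell and 2 rose. Slc7a5, the catalytic subunit of the LAT1 transporter that brings leucine into cells, lay at 130.0, 136 and 153 CPM in SD and 100.0, 114 and 115 in MET+LEU (log2 fold change -0.31 with a standard error of 0.04, adjusted p = 6.12e-07). Slc7a1, a carrier of cationic amino acids, lay at 91.2, 95.3 and 101 CPM in SD and 74.9, 81.1 and 83.3 in MET+LEU (log2 fold change -0.25 with a standard error of 0.04, adjusted p = 2.46e-06). Aldh18a1, which makes the precursor of proline, lay at 49.3, 51.4 and 57.3 CPM in SD and 40.2, 43.3 and 47.5 in MET+LEU (log2 fold change -0.26 with a standard error of 0.05, adjusted p = 1.14e-04). No library of one group reached the other for these 3 genes. Slc3a2, the partner chain of Slc7a5, had a log2 fold change of -0.17 and also passed, and Atf4 fell by 0.14 (edgeR, adjusted p = 0.00356, and 0.0547 with the GC offset), both named for their roles after their values were seen. Asns and Ddit3, standard targets of Atf4, did not pass, at -0.09 and -0.15. Against MET 3 members were lower (3.15% of all genes were) and against LEU 2 (1.67%), with medians of -0.08 and -0.10. The list mean lay at 4.61 to 4.85 log2 CPM in SD and 4.38 to 4.65 in MET+LEU, and 5 of 6 MET+LEU libraries lay below all SD libraries. Against 2% HS 25 were lower (20.3% of all genes were).

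**Figure D5:**
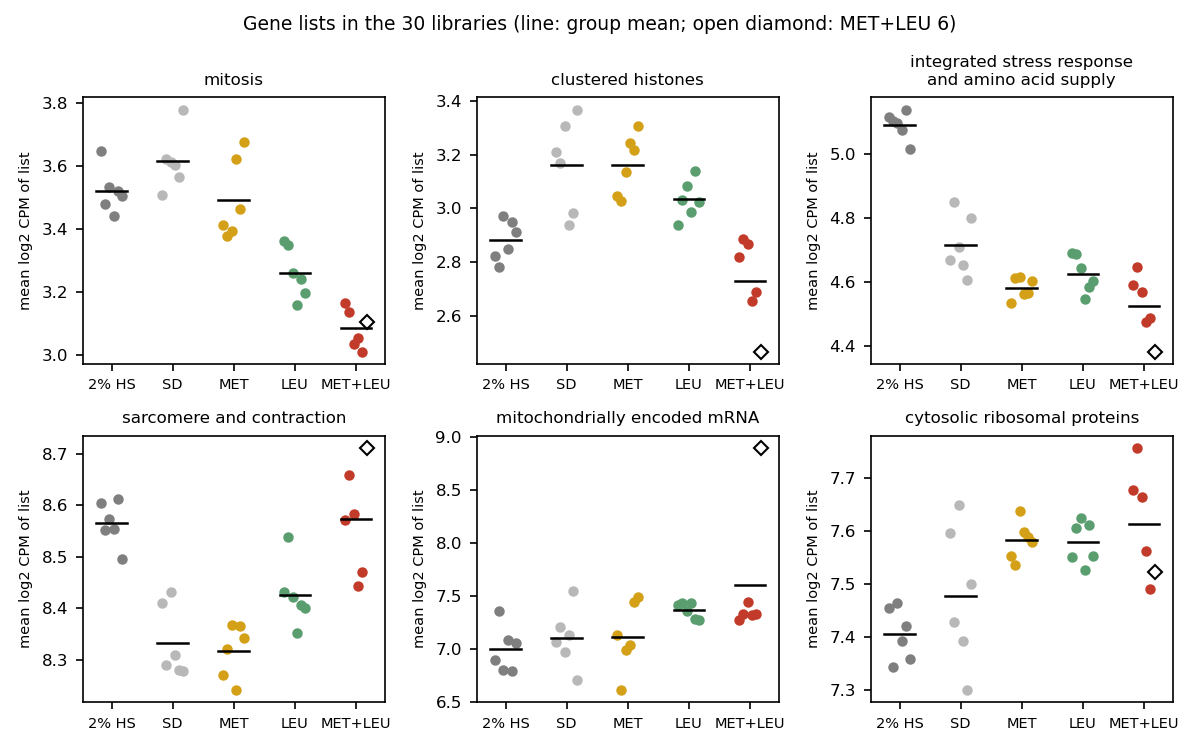
Mean log2 CPM over 6 gene lists (y axes, which do not start at 0) in the 6 libraries of each of the 5 groups (x axes), with a line at the group mean and an open diamond for MET+LEU replicate 6. Mitosis and clustered histones lie lower in all MET+LEU than in all SD libraries, sarcomere genes lie higher, and for mitochondrially encoded mRNA replicate 6, at 8.90, lies far above the other 29 libraries.

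Of 56 genes of leucine sensing, mTORC1 and AMPK, 55 were tested, 9 were downregulated (16.4%, beside 7.8% of all genes) and 4 upregulated (7.27%, beside 10.6%), with a median of -0.07 (-0.04 without replicate 6 or without SD replicate 1). Without replicate 6, 6 were downregulated and 3 upregulated, where 5.96% and 7.58% of all genes were. With the GC offset 5 fell and 4 rose, where 6.31% and 9.51% of all genes did. Nprl3, a subunit of the GATOR1 complex that restrains mTORC1, lay at 36.3, 40.3 and 45.5 CPM in SD and 29.2, 33.2 and 35.7 in MET+LEU (log2 fold change -0.29 with a standard error of 0.06, adjusted p = 2.42e-04). Rps6kb1, the S6 kinase downstream of mTORC1, lay at 89.5, 97.6 and 112 CPM in SD and 111, 114 and 152 in MET+LEU (log2 fold change 0.27 with a standard error of 0.06, adjusted p = 4.55e-04). Deptor, an inhibitor within the mTOR complexes, lay at 392, 416 and 444 CPM in SD and 437, 457 and 491 in MET+LEU (log2 fold change 0.14 with a standard error of 0.03, adjusted p = 0.00293). Rps6kb1 was highest in replicate 6, and both genes had MET+LEU libraries inside the SD range. The leucine and arginine sensors Sesn2 and Castor1 fell by 0.29 and 0.54 (edgeR, adjusted p = 0.00505 and 0.0497), and Castor1, whose mean was 1.34 ± 0.391 CPM against 1.97 ± 0.311 in SD (standard deviation, n = 6 each), did not pass without replicate 6 (edgeR, adjusted p = 0.147). Neither passed with the GC offset (adjusted p = 0.0697 and 0.114). Mtor and the AMPK catalytic subunits Prkaa1 and Prkaa2 did not pass, at -0.07, 0.03 and 0.02 on the log2 scale.

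Proteasome genes rose, with 18 of 36 tested members upregulated (50%, beside 10.6% of all genes) and 0 downregulated (edgeR; 0 downregulated also at an unadjusted p under 0.05, by DESeq2 and by limma), 15 and 0 without replicate 6, 16 and 0 with the GC offset, and a median of 0.12. Psmc3, an ATPase of the regulatory particle, lay at 243, 249 and 286 CPM in SD and 293, 313 and 342 in MET+LEU (log2 fold change 0.29 with a standard error of 0.04, adjusted p = 4.35e-07). Psmd12, a lid subunit, lay at 91.5, 96.7 and 107 CPM in SD and 107, 116 and 123 in MET+LEU (log2 fold change 0.24 with a standard error of 0.04, adjusted p = 1.73e-05). Sem1, a small lid protein outside the list, lay at 18.7, 22.5 and 27.7 CPM in SD and 31.97, 34.5 and 86.3 in MET+LEU (log2 fold change 0.88 with a standard error of 0.18, adjusted p = 0.00108), at 0.56 without replicate 6, and did not pass when only these 12 libraries were modelled (edgeR, adjusted p = 0.0611). Of 44 chaperone and ER stress genes 16 were upregulated (36.4%, beside 10.6% of all genes) and 5 downregulated (11.4%, beside 7.8%), and 15 and 2 without replicate 6. Hspa8, the constitutive cytosolic Hsp70, lay at 722, 792 and 810.2 CPM in SD and 879, 901 and 1027 in MET+LEU (log2 fold change 0.24 with a standard error of 0.04, adjusted p = 7.30e-06), and Hsp90aa1, an Hsp90, had a log2 fold change of 0.25. Of 19 tested genes of atrophy ligases and FoxO 0 were upregulated and 2 downregulated (10.5%), beside 10.6% and 7.8% of all genes. Without replicate 6 there were 0 and 1. At an unadjusted p under 0.05 (edgeR) 4 were upregulated, and DESeq2 called 1 upregulated and limma 0. Fbxo32 and Trim63, the muscle ligases atrogin-1 and MuRF1, named for their roles, had log2 fold changes of 0.09 and 0.12 (edgeR, adjusted p = 0.165 and 0.0815). Foxo3, the transcription factor above them, lay at 169.6, 184 and 197 CPM in SD and 160.2, 171 and 177 in MET+LEU (log2 fold change -0.11 with a standard error of 0.04, adjusted p = 0.0268) and did not pass with the GC offset (adjusted p = 0.848). Of 41 autophagy and lysosome genes 4 were upregulated (9.76%) and 2 downregulated (4.88%), among them Ctsl, cathepsin L, at 208, 226 and 253 CPM in SD and 262, 281 and 298 in MET+LEU (log2 fold change 0.28 with a standard error of 0.04, adjusted p = 2.46e-06).

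Among RNA and redox genes, splicing factors held 21 upregulated (36.2%) and 6 downregulated (10.3%) of 58, beside 10.6% and 7.8% of all genes, with a median of 0.10 that was 0.04 without replicate 6, where 18 and 5 were called. Hnrnpu, a nuclear RNA-binding protein, lay at 387, 436 and 466 CPM in SD and 493, 518 and 754 in MET+LEU (log2 fold change 0.36 with a standard error of 0.07, adjusted p = 2.89e-04), and at 0.25 without replicate 6. Ddx5, an RNA helicase, lay at 703, 810.4 and 833 CPM in SD and 851, 906 and 1008 in MET+LEU (log2 fold change 0.20 with a standard error of 0.04, adjusted p = 7.72e-05). Antioxidant and selenoprotein genes held 11 upregulated (26.2%) and 1 downregulated (2.38%) of 42. Selenop, the selenium carrier, lay at 37.8, 44.2 and 48.01 CPM in SD and 51.8, 56.99 and 62.5 in MET+LEU (log2 fold change 0.38 with a standard error of 0.06, adjusted p = 8.49e-06). Sod1, the cytosolic superoxide dismutase, and Nfe2l2, the regulator of antioxidant genes, had log2 fold changes of 0.33 and 0.23. Both were above all SD libraries in every MET+LEU library. Genes of cholesterol and fatty acid synthesis went down, with 11 downregulated (32.4%) and 2 upregulated (5.88%) of 34 (7 and 2 without replicate 6, 9 and 3 with the GC offset) and a median of -0.07. Srebf2, the sterol-regulated transcription factor of this pathway, lay at 342, 365 and 423 CPM in SD and 271, 306 and 329 in MET+LEU (log2 fold change -0.29 with a standard error of 0.04, adjusted p = 1.04e-05). Fasn, fatty acid synthase, had a log2 fold change of -0.24. The list mean lay at 6.02 to 6.08 log2 CPM in SD and 5.95 to 6.01 in MET+LEU without overlap, although Hmgcs1 and Idi1, of the same pathway, rose by 0.16 and 0.26.

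Matrix genes went both ways. Of 25 tested collagen genes 5 were upregulated (20%) and 6 downregulated (24%), and of 58 other matrix genes 8 (13.8%) and 11 (18.97%), beside 10.6% and 7.8% of all genes. Without MET+LEU replicate 2 or 4 or SD replicate 1 or 2, 3 collagen genes were upregulated. With the GC offset 6 collagen genes were upregulated and 5 downregulated, and of the other matrix genes 10 and 7. Col1a1, the main chain of fibrillar collagen, lay at 692, 766 and 860.3 CPM in SD and 572, 602 and 651 in MET+LEU (log2 fold change -0.35 with a standard error of 0.05, adjusted p = 2.14e-06). Col6a3, a chain of microfibrillar type VI collagen, lay at 658, 690.2 and 701 CPM in SD and 572, 588 and 622 in MET+LEU (log2 fold change -0.21 with a standard error of 0.03, adjusted p = 1.73e-05). Col5a2, a chain of type V collagen, rose, from 1521, 1617 and 1714 to 1733, 1845 and 1898 CPM (log2 fold change 0.19 with a standard error of 0.03, adjusted p = 5.28e-05). In all 3 the groups were apart. The sum of fibroblast markers, most of which is Col1a1, was lower in MET+LEU as given above, whereas their mean log2 CPM overlapped. Dcn, decorin, rose (log2 fold change 0.48 with a standard error of 0.10, edgeR adjusted p = 0.00111) with overlapping groups. The part of fibroblast-like cells in these values was not tested. Tnc, tenascin C, lay at 957, 973 and 1031 CPM in SD and 811, 848 and 877 in MET+LEU (log2 fold change -0.22 with a standard error of 0.03, adjusted p = 2.94e-06).

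Inflammatory and growth factor genes were described by list. Of 45 chemokines and cytokines 29 passed the filter, 4 were upregulated and 2 downregulated, shares of 13.8% and 6.90% beside 10.6% and 7.8% of all genes. Ccl11, the chemokine eotaxin, was low, at 1.26, 1.64 and 1.93 CPM in SD and 2.47, 2.97 and 3.22 in MET+LEU (log2 fold change 0.86 with a standard error of 0.19, adjusted p = 0.00117), with no overlap, and was lower than in 2% HS. Igf1 and Hgf, growth factors for muscle, lay at 279, 306 and 339 and 65.7, 69.8 and 80.5 CPM in SD and 344, 368 and 388 and 76.3, 91.4 and 105 in MET+LEU, with log2 fold changes of 0.26 and 0.35. The groups were apart for Igf1 and overlapped for Hgf. Il6, named for its role, did not pass (log2 fold change 0.38, edgeR adjusted p = 0.227). Of 36 tested NF-kB and TNF receptor genes 5 were downregulated (13.9%) and 2 upregulated (5.56%), and 2 were downregulated without replicate 6 or with the GC offset and 3 without SD replicate 1. Map3k14, the kinase of the alternative NF-kB pathway, lay at 70.01, 77.4 and 81.4 CPM in SD and 62.1, 64.6 and 67.1 in MET+LEU (log2 fold change -0.25 with a standard error of 0.05, adjusted p = 1.95e-04). Of 41 immediate early and ERK feedback genes 7 were downregulated (17.1%) and 2 upregulated (4.88%), and 6 and 0 without replicate 6. With the GC offset 4 were downregulated and 2 upregulated, where 6.31% and 9.51% of all genes were. The list median was -0.026 without the offset and 0.009 with it. Fos, an AP-1 subunit, lay at 11.2, 14.5 and 15.4 CPM in SD and 8.26, 11.1 and 12.2 in MET+LEU, with an overlap (log2 fold change -0.39 with a standard error of 0.09, adjusted p = 0.00277), and Fosl2, of the same family, at 328, 342 and 343 CPM in SD and 278, 308 and 316 in MET+LEU (log2 fold change -0.15 with a standard error of 0.03, adjusted p = 3.86e-04).

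Among the remaining protein-coding genes with the largest rises, Dkk2, a secreted Wnt antagonist, lay at 2.91, 3.80 and 4.65 CPM in SD and 5.48, 6.52 and 8.91 in MET+LEU (log2 fold change 0.88 with a standard error of 0.15, adjusted p = 3.66e-05) and was higher than in each of the other 3 groups. Pin4, a peptidyl-prolyl isomerase, lay at 3.79, 5.48 and 6.39 CPM in SD and 7.54, 8.95 and 16.7 in MET+LEU (log2 fold change 0.89 with a standard error of 0.14, adjusted p = 2.42e-05). Pdcd5, a gene associated with apoptosis, lay at 15.3, 18.6 and 19.2 CPM in SD and 26.9, 29.8 and 47.1 in MET+LEU (log2 fold change 0.83 with a standard error of 0.13, adjusted p = 6.15e-05). In these 3 genes, as in all 12 by the rule, the groups did not overlap. Znrd1as, an antisense gene annotated as protein-coding, had a log2 fold change of 0.82. Of these 12 genes 9 were higher than in MET (5.54% of all genes were), 5 higher than in LEU (4.61%) and 11 higher than in 2% HS (22.1%). Such comparisons reuse the MET+LEU libraries by which the 12 were chosen, so they are no independent support. Among genes that are not protein-coding, 88 of 3274 were upregulated and 106 downregulated, beside 12.7% and 8.98% of protein-coding genes. The 4 with the largest falls under the same rule were ENSMUSG00000118642, which had no symbol in the tables used, Gm38059, Gm37352 and Gm17971. Gm37352 lay at 109, 119 and 131 CPM in SD and 69.2, 83.1 and 87.9 in MET+LEU (log2 fold change -0.56 with a standard error of 0.05, adjusted p = 4.07e-11). ENSMUSG00000118642 lay at 6.51, 9.34 and 19.3 CPM in SD and 2.27, 3.58 and 4.41 in MET+LEU (log2 fold change -1.80). The 5 genes with the largest fold changes that lost their call without replicate 6 were Gm15564, Mir6236, Gm4070, Gm12666 and Ifitm1, with log2 fold changes of 2.30, 1.94, 1.60, 1.55 and -1.34 with it and 0.96, 1.04, 1.41, 0.47 and -1.27 without.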

How the data were processed

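The authors deposited a table of raw counts per gene for 30 libraries of rRNA-depleted total RNA. The submitters' processing notes name cutadapt 1.16, STAR 2.7.6a, featureCounts 1.6.3, DESeq2 1.30.1 and the build GRCm38. The annotation release and the strand and multimapping settings are not given in the sources used here. Library totals were 12784960 to 19604103 counts, so 3 counts, the least taken as detected, were 0.153 to 0.235 CPM, and such floors cover counting error only. Of 55487 gene identifiers, 260 had no match in GENCODE M21 and held 0.00434% of counts.

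Genes were filtered with filterByExpr (15907 kept) and TMM-scaled, and edgeR 4.0.16 quasi-likelihood models (R 4.3.3) were fitted to all 30 libraries, whose 5 groups share 1 estimate of the spread. MET+LEU was contrasted with SD, and p-values were adjusted over all genes by Benjamini-Hochberg with a threshold of 0.05. The CPM of genes are TMM-scaled and those of marker sums are of the library total. List means are means of log2 CPM with a prior count of 2. The procedure was tested on simulated data. Alternatives were other scalings, filters and tools (DESeq2 1.42.0, limma 3.58.1), single libraries left out, the 12 libraries alone, a replicate block and, added after seeing the data, a GC offset. No column was left unmapped.

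Samples were grouped by their labels. Genes were named as the 12 protein-coding and 4 other genes with the largest changes in each direction among those that passed with and without MET+LEU replicate 6, did not overlap between groups and had a mean of at least 1 log2 CPM, the 3 members of each list with the smallest adjusted p, and the 5 with the largest changes that lost their call without MET+LEU replicate 6. Other genes were named for their role, or as members of a small count, after their values were seen. Results of some genes are not reported here. The gene lists and the comparison were chosen with earlier results of these data known.

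No 2 libraries held identical values. Replicate numbers were not taken to pair the samples, since the deviations of libraries with the same number correlated at 0.0119 to 0.0583.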

Additional observations from a re-analysis of the deposited data

Results flagged for a closer look

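Over 338 sets of 6 values (136 genes, 29 gene lists and 4 library measures in each group), 53 held a library whose gap to the nearest of the other 5 took more of the group's range than Dixon's 95% limit allows. Chance gives about 1 such set in 20. Of the 53, 45 were MET+LEU replicate 6, 3 other MET+LEU libraries and 5 SD libraries.

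MET+LEU replicate 6 stood apart in its share of nuclear ribosomal RNA (5.85%), its share of mitochondrial ribosomal RNA (7.64%) and its scaling factor (0.803). Mitochondrial transcripts were higher there than in the other 5 libraries of the group, at 42476 CPM for mt-Rnr2, 52730 for mt-Rnr1, 5501 for mt-Nd2, 10029 for mt-Nd5 and 11360 for mt-Cytb. Genes of muscle and of mitochondria lay high in it too, at 566.0 CPM for Tnnc2, 1243 for Tnnt3, 704.0 for Tnni2, 3132 for Myh1, 253.0 for Lmod3, 553.0 for Ankrd1, 119.0 for Ndufa13, 347.0 for Cox6c, 124.0 for Sucla2 and 194.0 for Dld. So did Lrp6 at 217.0 CPM, Eif2ak2 at 41.5, Snhg8 at 17, H2bc4 at 92.0, Nupr1 at 63.8, Mki67 at 84.4, Pin4 at 16.7, Sem1 at 86.3, Pdcd5 at 47.1, Rars at 132.0, Tars at 176.0, Rps6kb1 at 152.0, Hnrnpu at 754.0, Igfbp7 at 249.0 and Rpl21 at 275.0. The same library was high for CT010467.1 (72844 CPM), Gm15564 (26.7 CPM), Mir6236 (530.0) and Gm12666 (4.05). It was low for H4f16 (6.40 CPM), Per1 (33.4), Vars (70.1), Slc7a5 (100.0) and Fosl2 (278.0). Its list mean in log2 CPM stood apart for mitochondrially encoded mRNA (8.90), aminoacyl-tRNA synthetases (5.71) and splicing factors (6.71).

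Among the other libraries, MET+LEU replicate 2 was high for Rrm2 (91.8 CPM), MET+LEU replicate 4 stood apart for Pole (9.29 CPM) and for the mean over chemokines and cytokines (3.70 log2 CPM), SD replicate 2 for Tnnt3 (390.0 CPM) and Gm4070 (0.531 CPM), SD replicate 1 for Fst (269.0 CPM), and SD replicate 6 was high for Anln (43.8 CPM) and Cdk1 (17.5 CPM).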

How the results depend on the processing

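None of the 136 named genes examined, which are those named as passing, changed direction under the 21 to 25 alternatives that gave a value for each. Genes named as not passing were not examined. Where the MET+LEU and SD libraries were fitted alone, 1422 genes changed (941 up, 481 down), and 1324 (817 up, 507 down) without MET+LEU replicate 6 as well. With limma-voom and sample quality weights 1859 changed, 701 of them down. At an adjusted p under 0.01 there were 1613 (1034 up, 579 down). With the GC offset and without MET+LEU replicate 6, 815 were downregulated. Leaving out 1 library at a time gave 2175 to 3159 changed genes, 1217 to 1783 up and 958 to 1493 down, with the fewest without MET+LEU replicate 6. Upper-quartile scaling put 48.2% of calls upward, against 57.7% as reported. A replicate block gave 1765 up and 1348 down (3113 in all), and 2 of 6 libraries correlated best with their own number, so the numbers were not taken as a pairing. In the fit of the 12 libraries alone mt-Nd2, mt-Nd5, Sem1, H4f16, mt-Rnr2, mt-Rnr1 and Gm38059 lost their call (adjusted p = 0.0509 to 0.0611), as did Gm15564, Mir6236, CT010467.1, Agrn, Mki67, Hmgcs1, Foxo3, Atp5g2, Castor1, Cox8a, Rpl22l1, Spc24 and Ube2c. The last 6 of these lost it under 11, 14, 14, 10, 14 and 10 of 25 alternatives and Gm12666 under 10 of 21. Ifitm1 lost it under 6 of 21, Gm15564 under 5 of 24, Mir6236 under 3 of 25 and Gm4070 under 2 of 21. Of 25 alternatives, Foxo3 lost its call under 6, Agrn, Fst, Mki67 and Hmgcs1 under 4, Mb and Idi1 under 3, Per1, Sesn2 and Atf4 under 2, and Ampd1, Mapk14, Deptor and Gm17971 under 1. Among these, Mb lost it without MET+LEU replicate 1 or 2 or SD replicate 6, Fst without SD replicate 1, and Mki67 without MET+LEU replicate 3 or 5 or SD replicate 6. The cause was not tested. Depth limits genes near the floor of 3 counts.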

Other observations

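The remaining lists are given beside the 10.6% of all genes that were upregulated and the 7.8% that were downregulated. Of 43 Notch and Wnt genes 11 were downregulated (25.6%) and 5 upregulated (11.6%), and with the GC offset 5 and 7. Without replicate 6 there were 9 and 5. Notch1, a Notch receptor, lay at 203, 222 and 229.8 CPM in SD and 165, 182 and 192 in MET+LEU (log2 fold change -0.29 with a standard error of 0.04, adjusted p = 1.99e-06). Lrp6, a Wnt co-receptor, lay at 154, 167 and 175 CPM in SD and 179, 188 and 217 in MET+LEU (log2 fold change 0.19 with a standard error of 0.04, adjusted p = 9.32e-05). The groups were apart for both. Of 34 insulin, IGF and PI3K genes 7 were upregulated (20.6%) and 1 downregulated (2.94%, and 0 without replicate 6). Igfbp7, an IGF-binding protein, lay at 129, 142 and 154 CPM in SD and 170.4, 185 and 249 in MET+LEU (log2 fold change 0.45 with a standard error of 0.07, adjusted p = 2.42e-05), and Ghr, the growth hormone receptor, lay at 118, 131 and 143 CPM in SD and 146, 151 and 159 in MET+LEU (log2 fold change 0.22 with a standard error of 0.04, adjusted p = 9.63e-05). Of 39 TGF-beta, activin and BMP genes 7 were upregulated (17.95%) and 2 downregulated (5.13%), and 5 and 2 without replicate 6. Grem1, a BMP antagonist, lay at 98.3, 113 and 115 CPM in SD and 126, 140.4 and 152 in MET+LEU (log2 fold change 0.36 with a standard error of 0.06, adjusted p = 1.62e-04). Fst, the myostatin and activin antagonist follistatin, lay at 269, 304 and 308 CPM in SD and 312, 322 and 358 in MET+LEU (log2 fold change 0.14 with a standard error of 0.04, adjusted p = 0.00815). Both were above every SD library in all 6 MET+LEU libraries.

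Of 41 interferon response and antigen presentation genes 2 were upregulated and 2 downregulated (4.88% each, and 0 downregulated without replicate 6), among them Eif2ak2, the kinase PKR, at a log2 fold change of 0.37. Of 26 p38 and JNK genes 4 were downregulated (15.4%), Mapk14 by 0.19, and 1 upregulated (3.85%), and with the GC offset 1 and 1. Of 30 integrin and adhesion genes 4 were downregulated (13.3%), among them Flnc, a muscle filamin, by 0.20, and 3 upregulated (10%). Of 18 genes of the acetylcholine receptor and neuromuscular junction 4 were downregulated (22.2%, and 1 with the GC offset), Dok7 by 0.30 and Agrn by 0.19, and 2 upregulated (11.1%), of which Nes, nestin, had 0.24. Of 11 tested creatine, myoglobin and energy buffer genes 2 were upregulated (18.2%), Ampd1 at 0.44 and Mb at 0.25, and 1 downregulated (9.09%). Of 20 clock genes 2 were downregulated (10%), among them Per1 by 0.22, and 0 upregulated (edgeR, with 0 also at an unadjusted p under 0.05, by DESeq2 and by limma). Of 336 zinc finger Zfp genes 39 were upregulated (11.6%) and 13 downregulated (3.87%), 17 and 11 without replicate 6 and 14 and 7 with the GC offset. Of 14 snoRNA host genes 2 were upregulated, Snhg8 at 0.66, and 2 downregulated (14.3% each).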
